A study of Sus scrofa with 24 samples.

Results

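MSR1, CD163, CD68, VSIG4 and SLC11A1 are genes with which macrophages bind, engulf and process particles, and they were followed here in pig veins carrying an arteriovenous haemodialysis graft. Probes were taken by gene name, by accession or, where neither named the gene, by the protein named in the description, which gave 15 of the 43603 probes on the array and 5 of its 6126 named genes. MSR1 had 2 probes, CD163 had 10, and CD68, VSIG4 and SLC11A1 had 1 each. Total RNA was taken from Sus scrofa at the junction of graft and vein (venous anastomosis), from the vein further downstream, and from an external jugular vein that served as control. These 3 sites were collected 5 and 14 days after the graft was placed. Each of the 6 groups had 4 biological replicates, so that there were 24 samples. Strain, age and sex of the animals are not given in the sources used here, nor do they state whether samples of equal number and day came from a single animal. The study asks how gene expression differs between vein regions that are susceptible and resistant to neointimal hyperplasia, the build-up of cells and matrix on the inner wall of the vein.

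Macrophages take up modified lipoproteins, haemoglobin complexes, microbes and dying cells through scavenger receptors, and deliver them to a phagosome that fuses with lysosomes. MSR1 encodes the class A scavenger receptor for modified low-density lipoprotein, and CD163 the receptor for haptoglobin-haemoglobin complexes. VSIG4 is a complement receptor of resident macrophages, CD68 (macrosialin) a glycoprotein of late endosomes and lysosomes, and SLC11A1 (NRAMP1) a metal transporter of the phagosome membrane. In a wall that is being remodelled such cells arrive from blood or are already resident. The RNA came from whole vein tissue, in which fewer cells of a type and less RNA per cell cannot be told apart.

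The array read each gene through designed 60-base probes. Shown here, in the array's own 5′ to 3′ orientation, are 3 of those with a gene-level match, none of them the brightest probe of its gene. With the brightest probe of its gene the MSR1 probe shared a run of at most 7 bases, and each CD163 probe at most 5. The first begins at base 610 of the transcript record that the array annotation gives, the second at base 2756 and the third at base 1819.
MSR1 probe A_72_P130086: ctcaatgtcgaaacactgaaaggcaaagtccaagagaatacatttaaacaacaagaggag
CD163 probe A_72_P018171: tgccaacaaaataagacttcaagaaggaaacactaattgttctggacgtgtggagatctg
CD163 probe A_72_P170001: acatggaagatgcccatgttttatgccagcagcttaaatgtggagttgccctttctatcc
Of the CD163 probes, 5 were assigned by gene name or accession and 5 by the description alone; whether the latter read CD163 or a related gene could not be checked here. Among the first 5, A_72_P055186 and A_72_P160596 shared a run of 26 bases and so were not independent readings. The MSR1 probes were named through a numbered locus whose gene ID is that of MSR1, and the CD68 probe only through the name macrosialin in the older array annotation.

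Probes had to exceed background clearly in 4 or more of 24 samples to be tested, and all 15 did. The brightest probe of each gene was well above background in 24 of 24 samples, and 0 of the 15 probes were saturated. Levels are given below as log2 of the normalised intensity of a sample's own dye channel, so that 1 unit is a doubling, and levels of different probes cannot be compared. Control samples carried the dye Cy3, and both graft sites Cy5. A difference from the control is therefore also a difference between dyes and the 2 cannot be told apart within a day, whereas anastomosis and downstream vein shared a dye. Between 56.9% and 80.2% of all probes were well above background in a sample, and this share was lower in replicates 1 and 2 (56.9% to 73.9%) than in replicates 3 and 4 (70.1% to 80.2%), which also differed in the version of the scan extraction protocol. The venous and macrophage identity of the tissue was checked on defining markers. ACTA2 of smooth muscle, PECAM1, VWF and CDH5 of endothelium, DCN of fibroblasts, and CD14, C1QA and AIF1 of macrophages were well above background in 24 of 24 samples; MYH11, CSF1R, S100A8, S100A9 and CSF3R were not matched to a probe here.

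On day 5 the mean level of each of the 5 genes was higher at both graft sites than in the jugular control. At the anastomosis 3 of the 5 rose: SLC11A1 by 3.16 ± 0.57 (log2 difference ± SE, 8.94-fold, adjusted p = 0.00201), MSR1 by 2.50 ± 0.39 (5.67-fold, adjusted p = 0.001) and CD163 by 1.35 ± 0.28 (2.55-fold, adjusted p = 0.00462). CD68 differed by 0.83 ± 0.32 (adjusted p = 0.0797) and VSIG4 by 0.67 ± 0.26 (adjusted p = 0.0874), which did not pass 0.05. Over all 36141 probes tested, 20% were called in this comparison, 9.75% as higher. In the downstream vein 4 of the 5 rose, against 8.37% of all probes called and 3.4% called as higher. These were SLC11A1 by 2.62 ± 0.57 (adjusted p = 0.0166), MSR1 by 2.19 ± 0.39 (adjusted p = 0.00827), CD163 by 1.19 ± 0.28 (adjusted p = 0.0227) and VSIG4 by 0.89 ± 0.26 (adjusted p = 0.0485), while CD68 differed by 1.01 ± 0.32 (adjusted p = 0.0624). The p-values are two-sided, from limma's moderated test, in which the 3 samples of equal number and day formed a block, and are adjusted by Benjamini-Hochberg over all probes tested. In each of the 8 sets of control, anastomosis and downstream sample of a number on day 5 or day 14, the anastomosis exceeded the control for all 5 genes, and on day 5 the downstream vein did so as well in 4 of 4 numbers. The median of the 5 differences on day 5 was 1.35 at the anastomosis and 1.19 downstream, where the median of all probes was 0.01 in both. When arrays were centred on their median with no correction of the dye curve, 5 of 5 passed at each graft site; 81.7% and 84.1% of the probes called were then higher, in place of 48.7% and 40.6%.

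**Figure D1:**
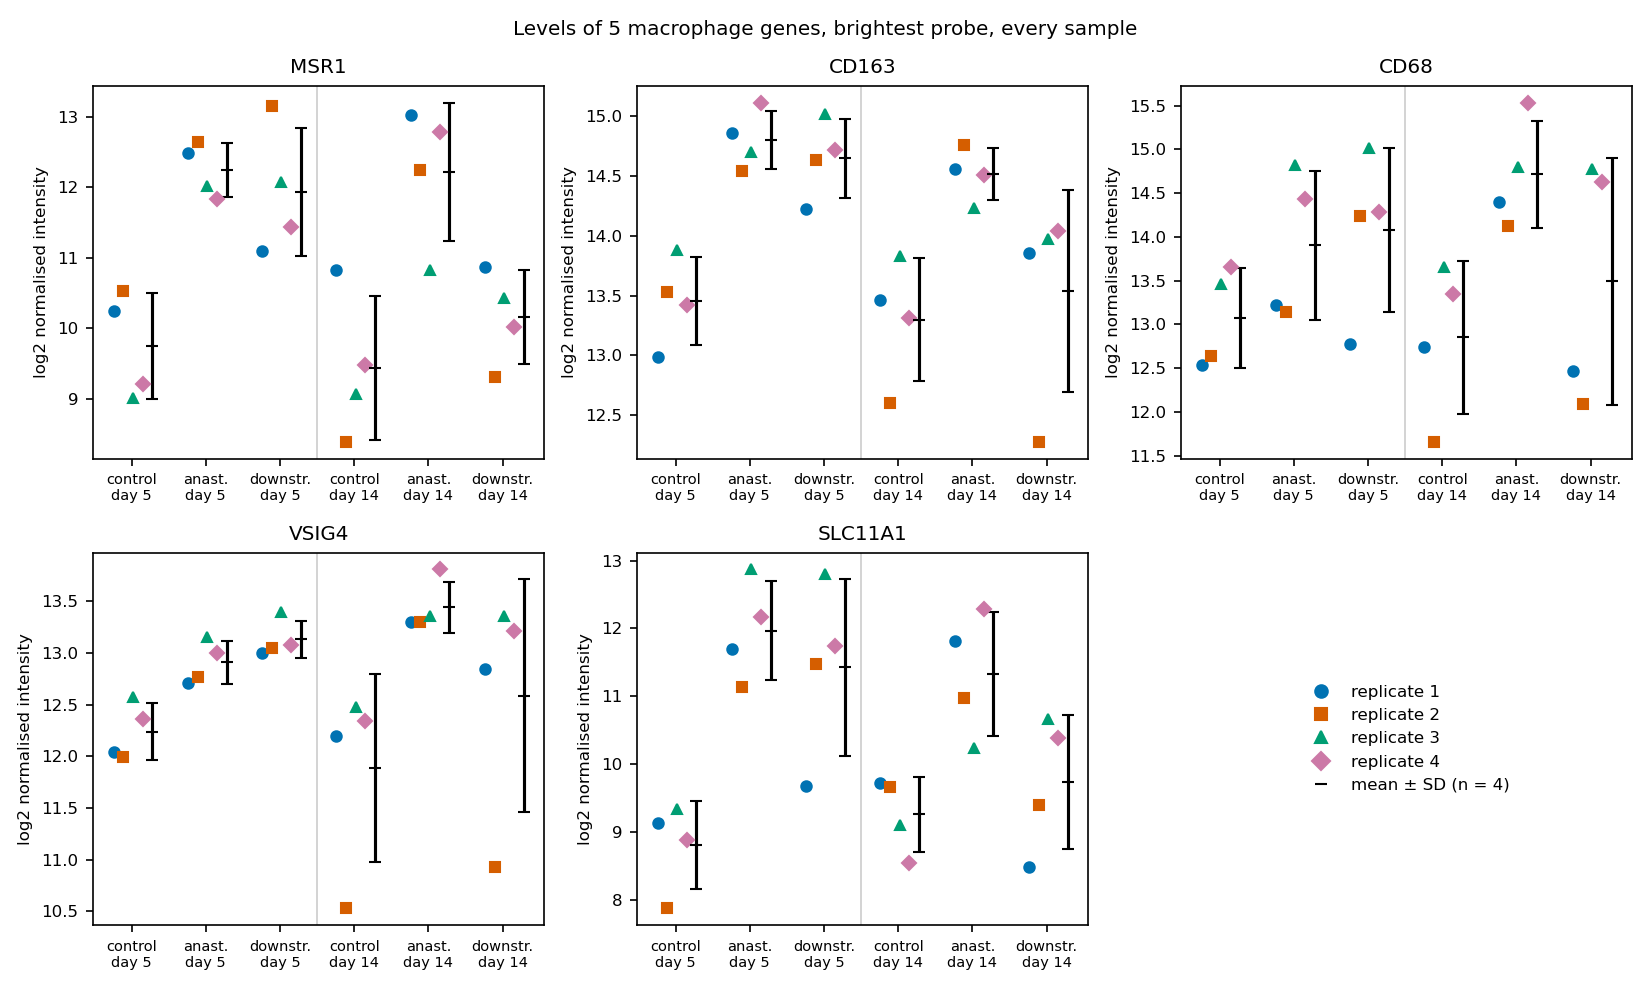
Log2 normalised intensity (vertical axis) of the brightest probe of each of the 5 genes in the 6 groups; points are the 4 replicates by number, bars the mean ± SD. MSR1 at the anastomosis on day 5 lies between 11.84 and 12.65, above every control sample of that day, and on day 14 replicate 2 is lowest for CD163 in the downstream vein at 12.28.

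MSR1 had the largest rise of the 5 genes at the anastomosis on day 14. Its control levels on day 5 were 10.24, 10.53, 9.01 and 9.21 in replicates 1 to 4, those of the anastomosis 12.49, 12.65, 12.02 and 11.84, and those of the downstream vein 11.09, 13.15, 12.07 and 11.43. Neither graft site overlapped with the control, as for 7.19% of all probes at the anastomosis and 3.38% downstream. On day 14 the control read 10.82, 8.39, 9.07 and 9.48, the anastomosis 13.02, 12.24, 10.83 and 12.78, and the downstream vein 10.87, 9.30, 10.43 and 10.02. The anastomosis again lay above every control sample, narrowly so in replicate 3, whereas the downstream vein overlapped with the control. The other MSR1 probe, A_72_P130086, was dimmer and gave the same calls, with anastomosis minus control at 1.72 ± 0.31 on day 5 and 1.64 ± 0.31 on day 14. By this probe, however, the downstream vein overlapped with the control on day 5 (down to 7.43, controls up to 7.99). On day 14 its lowest anastomosis sample, at 8.46, was barely above the highest control, at 8.43.

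SLC11A1 had the largest difference from the control on day 5 among the 5 genes, and the most scattered downstream levels of that day. The control read 9.13, 7.88, 9.34 and 8.89 in replicates 1 to 4 on day 5, the anastomosis 11.70, 11.14, 12.87 and 12.17, and the downstream vein 9.68, 11.47, 12.81 and 11.74. Replicate 1 of the downstream vein was close to the control and the other 3 were not. The groups still did not overlap, as for 3.38% of all probes. On day 14 the control read 9.72, 9.67, 9.10 and 8.55, the anastomosis 11.82, 10.97, 10.24 and 12.29, and the downstream vein 8.49, 9.40, 10.67 and 10.39. Replicates 1 and 2 of the downstream vein lay below their own controls on day 14, replicates 3 and 4 above.

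CD163 was read at high intensity by its brightest probe, A_72_P177981. On day 5 the control gave 12.99, 13.53, 13.88 and 13.42, the anastomosis 14.86, 14.54, 14.70 and 15.11, and the downstream vein 14.22, 14.63, 15.02 and 14.72. Both graft sites were above every control sample, as for 7.19% of all probes at the anastomosis and 3.38% downstream. On day 14 the control gave 13.46, 12.60, 13.83 and 13.31, the anastomosis 14.56, 14.76, 14.23 and 14.51, and the downstream vein 13.86, 12.28, 13.97 and 14.04. At that time replicates 1, 3 and 4 of the downstream vein lay slightly above the highest control and replicate 2 below all controls. By this probe every anastomosis sample lay above both groups. Of all probes, 3.08% lay so above the control and 0.949% above the downstream vein. By the other CD163 probes assigned by name or accession, anastomosis and downstream vein overlapped on day 14. In A_72_P055186, for example, the anastomosis went down to 13.49 and the downstream vein up to 13.73.

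CD68 levels followed the replicate number as well as the site. On day 5 the control read 12.53, 12.64, 13.46 and 13.66 in replicates 1 to 4, the anastomosis 13.22, 13.14, 14.82 and 14.43, and the downstream vein 12.77, 14.24, 15.01 and 14.28. Replicates 3 and 4 were above replicates 1 and 2 at every site on both days. On day 14 the control read 12.74, 11.66, 13.65 and 13.35, the anastomosis 14.40, 14.12, 14.80 and 15.53, and the downstream vein 12.47, 12.09, 14.77 and 14.63. The anastomosis was above every control sample on day 14, and the downstream vein split, with replicates 1 and 2 low and replicates 3 and 4 high.

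For VSIG4 on day 5 the control read 12.04, 11.99, 12.57 and 12.36, the anastomosis 12.71, 12.77, 13.16 and 13, and the downstream vein 13, 13.05, 13.40 and 13.08. VSIG4 was the gene whose downstream level on day 5 exceeded the anastomosis in 4 of 4 numbers, with anastomosis minus downstream at -0.30 to -0.08. On day 14 the control read 12.20, 10.53, 12.48 and 12.34, the anastomosis 13.30, 13.30, 13.36 and 13.81, and the downstream vein 12.85, 10.93, 13.36 and 13.21. Replicate 2 was low in both the control and the downstream vein of day 14 but not at the anastomosis.

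By day 14 all 5 genes had risen at the anastomosis over the control, against 8.87% of all probes called in this comparison and 4.77% called as higher. MSR1 rose by 2.78 ± 0.39 (6.86-fold, adjusted p = 0.00182), SLC11A1 by 2.07 ± 0.57 (4.21-fold, adjusted p = 0.0366), CD68 by 1.86 ± 0.32 (3.63-fold, adjusted p = 0.00465), VSIG4 by 1.56 ± 0.26 (2.94-fold, adjusted p = 0.00445) and CD163 by 1.22 ± 0.28 (2.32-fold, adjusted p = 0.0184). For all 5 the 4 anastomosis samples lay above the 4 controls, a separation that 3.08% of all probes showed. In the downstream vein 0 of the 5 passed, where 0.913% of all probes were called and 0.645% as higher. The downstream differences from the control were 0.72 ± 0.39 for MSR1 (adjusted p = 0.411), 0.70 ± 0.26 for VSIG4 (adjusted p = 0.218), 0.64 ± 0.32 for CD68 (adjusted p = 0.361), 0.48 ± 0.57 for SLC11A1 (adjusted p = 0.749) and 0.24 ± 0.28 for CD163 (adjusted p = 0.746). At an unadjusted p under 0.05 VSIG4 alone would have passed downstream, as did 15.1% of all probes. With median centring 4 of the 5 passed downstream, and 78.6% of the probes called were higher in place of 70.6%. The day-14 calls at the anastomosis were lost in several alternative fits: without replicate 4 the differences were 1.22 to 2.61 and 0 of the 5 passed (adjusted p from 0.0592 to 0.317, with 149 in place of 3205 probes called), and in a fit of the control and anastomosis samples of day 14 alone 0 passed (adjusted p from 0.07 to 0.141, 62 probes called). On day 5, leaving out replicate 3 or replicate 4 took the downstream count from 4 to 0, and without replicate 2 it was 2. With no block, 1 of the 5 passed at the anastomosis on day 14 (MSR1, adjusted p = 0.0125, with 597 probes called) and 1 downstream on day 5. The median of the 5 differences at the anastomosis was 1.44 on day 5 and 1.94 on day 14 in replicates 1 and 2 alone, where 0 passed on either day, and 1.26 and 1.66 in replicates 3 and 4 alone, where 3 passed on each.

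**Figure D2:**
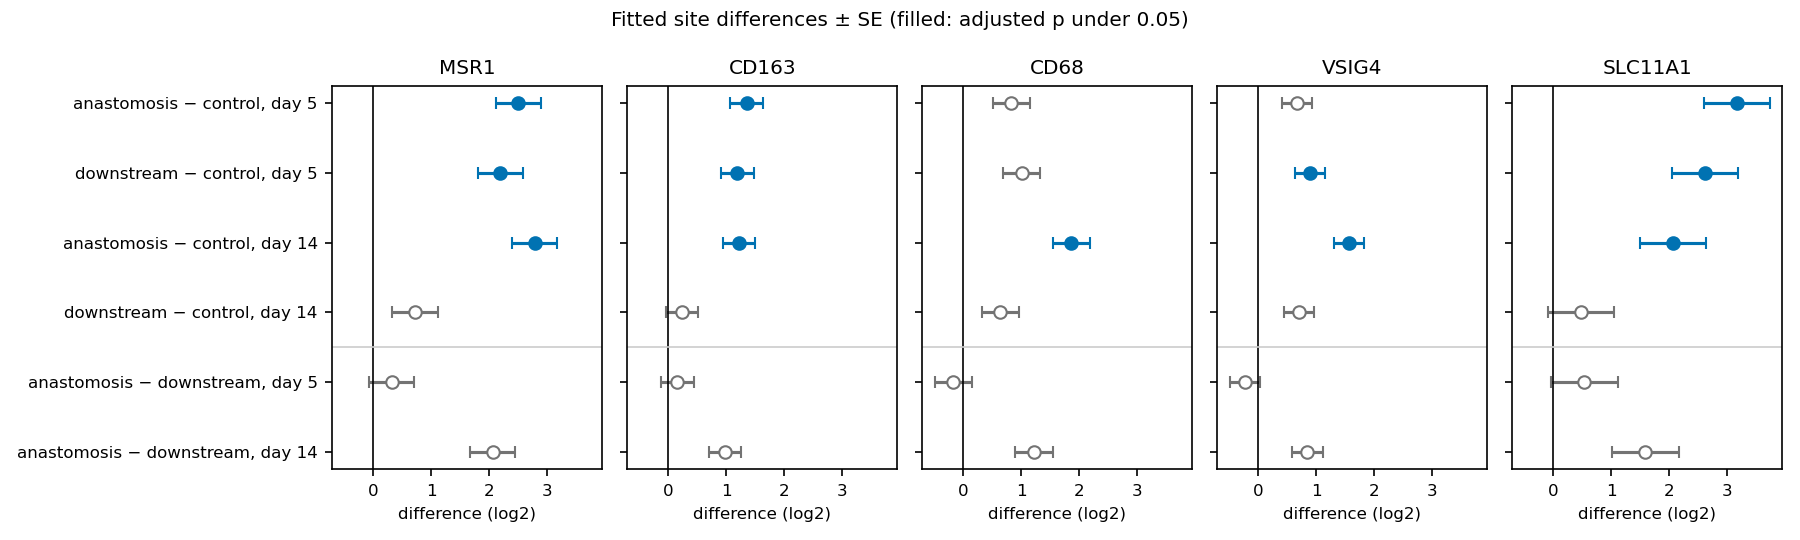
Fitted log2 differences ± SE (horizontal axis) of the 5 genes for the 4 comparisons with the control and the 2 between graft sites; filled points had an adjusted p under 0.05. For the anastomosis 3 of 5 are filled on day 5 and 5 of 5 on day 14, downstream 4 of 5 and 0 of 5.

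The direct comparison of the graft sites, which shared a dye, gave 0 calls on either day, for the 5 genes and over all probes (0% called in both). On day 5 the anastomosis minus downstream differences were small and of both signs: 0.54 ± 0.57 for SLC11A1, 0.32 ± 0.39 for MSR1, 0.16 ± 0.28 for CD163, -0.17 ± 0.32 for CD68 and -0.22 ± 0.26 for VSIG4, with adjusted p from 0.778 to 0.886. On day 14 all 5 were positive: 2.06 ± 0.39 for MSR1, 1.59 ± 0.57 for SLC11A1, 1.22 ± 0.32 for CD68, 0.98 ± 0.28 for CD163 and 0.85 ± 0.26 for VSIG4. Their median was 1.22 and that of all probes -0.01. None passed: the adjusted p was 0.122 for MSR1, 0.156 for CD68, 0.178 for CD163, 0.193 for VSIG4 and 0.247 for SLC11A1. All 5 had an unadjusted p under 0.05 (MSR1 0.000106, CD68 0.00163, CD163 0.00371, VSIG4 0.00541 and SLC11A1 0.0138), as had 14.2% of all probes, and MSR1 ranked 29 among the 36141. The exception among the pairs was replicate 3. Its median difference over the 5 genes on day 14 was 0.02, with 3 of 5 higher at the anastomosis, against 1.93, 2.37 and 0.89 in replicates 1, 2 and 4, in which 5 of 5 were higher. The median of the fitted differences was 1.98 in replicates 1 and 2 alone and 0.46 in replicates 3 and 4 alone. Without replicate 2, CD163 was 0.47 and VSIG4 0.35, and without its downstream sample alone 0.63 and 0.55. Without replicate 3, MSR1 (2.61, adjusted p = 0.0185) and CD68 (1.62, adjusted p = 0.0459) passed, with 485 probes called in all.

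**Figure D3:**
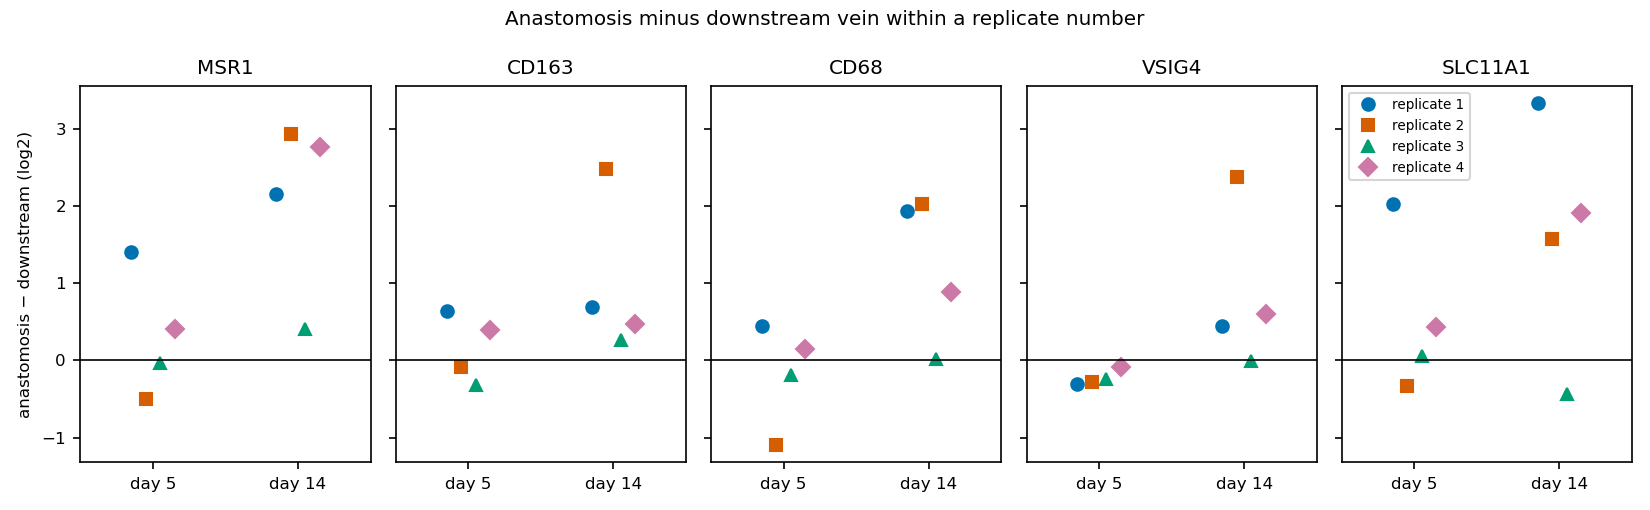
Anastomosis minus downstream vein (log2, vertical axis) within each replicate number on day 5 and day 14, brightest probe of each gene; the zero line is drawn. On day 14 replicates 1, 2 and 4 lie above zero for all 5 genes and replicate 3 lies between -0.43 and 0.40.

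The widening between the days was tested as the change of that difference from day 5 to day 14. It was 1.74 ± 0.55 for MSR1, 1.39 ± 0.45 for CD68, 1.08 ± 0.37 for VSIG4, 1.05 ± 0.80 for SLC11A1 and 0.82 ± 0.40 for CD163. The adjusted p was 0.981 for each, and 0% of all probes were called. At an unadjusted p under 0.05, MSR1 (0.00677), CD68 (0.00722) and VSIG4 (0.011) would have passed, as did 4.23% of all probes. The fitted change was above 0 for each of the 5, and none passed.

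Day 14 was also compared with day 5 at each site separately, where dye and site are the same on both sides. Days 5 and 14 lay on different slides in replicates 1 to 3, and on different scan days in replicates 1 and 2. Day and slide cannot be told apart in those replicates. In the downstream vein 0 of the 5 passed and 0% of all probes were called; the differences were -1.78 ± 0.49 for MSR1, -1.69 ± 0.70 for SLC11A1, -1.11 ± 0.40 for CD163, -0.59 ± 0.73 for CD68 and -0.54 ± 0.50 for VSIG4, each with an adjusted p of 1. The first 3 had an unadjusted p under 0.05, as had 4.52% of all probes. By the brightest probes of MSR1 and CD163, every downstream sample of day 14 was below every one of day 5, a separation that 1.15% of all probes showed. The other MSR1 probe overlapped, with day 14 up to 8.29 and day 5 down to 7.43. So did the named CD163 probe A_72_P055186 (13.73 and 13.27), whereas the remaining named CD163 probes did not. At the anastomosis 0 of the 5 passed, with 0.00553% of all probes called: MSR1 differed by -0.03 ± 0.45, CD163 by -0.29 ± 0.17, SLC11A1 by -0.64 ± 0.50, CD68 by 0.81 ± 0.45 and VSIG4 by 0.53 ± 0.17. The 4 VSIG4 levels of the anastomosis on day 14 were above the 4 of day 5 (adjusted p = 0.411), as for 2.27% of all probes. In the control vein 0 passed and 0% of probes were called, with differences from -0.35 (VSIG4) to 0.45 (SLC11A1).

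The 10 probes of CD163 fell into the 5 assigned by name and the 5 assigned by description. All 5 named probes rose at the anastomosis on day 5, by 1.24 to 1.52, and 4 of 5 on day 14, by 1.13 to 1.36, the fifth being A_72_P170001 at 0.97 ± 0.36 (adjusted p = 0.109). Downstream 4 of 5 rose on day 5 and 0 of 5 on day 14. These probes differed widely in brightness: in the day-5 controls A_72_P170001 read 7.96 to 8.26 and A_72_P177981 12.99 to 13.88. Of the probes known only from their description, A_72_P304849 had the largest values: its control read 8.74, 8.15, 10.09 and 7.46 on day 5, its anastomosis 10.64, 10.19, 9.94 and 10.02. On day 14 its control read 8.91, 9.84, 9.93 and 6.83, its anastomosis 12.02, 12.12, 10.13 and 9.84, and its downstream vein 11.42, 8.04, 10.58 and 8.67. The groups overlapped, and anastomosis minus control was 2.15 ± 0.65 (adjusted p = 0.053). Its day-14 minus day-5 difference downstream was 0.00 ± 0.83, beside -1.37 to -1.0 over the named probes. A_72_P080421 rose at the anastomosis on day 14 by 1.35 ± 0.38 (adjusted p = 0.0421), and A_72_P119126 and A_72_P315198 passed in 0 of the 10 comparisons. These 3 were well above background in 17 to 19 of the 24 samples. A_72_P422674, described as similar to the CD163 antigen, was above background in 5 of 24 samples and is not interpreted.

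**Figure D4:**
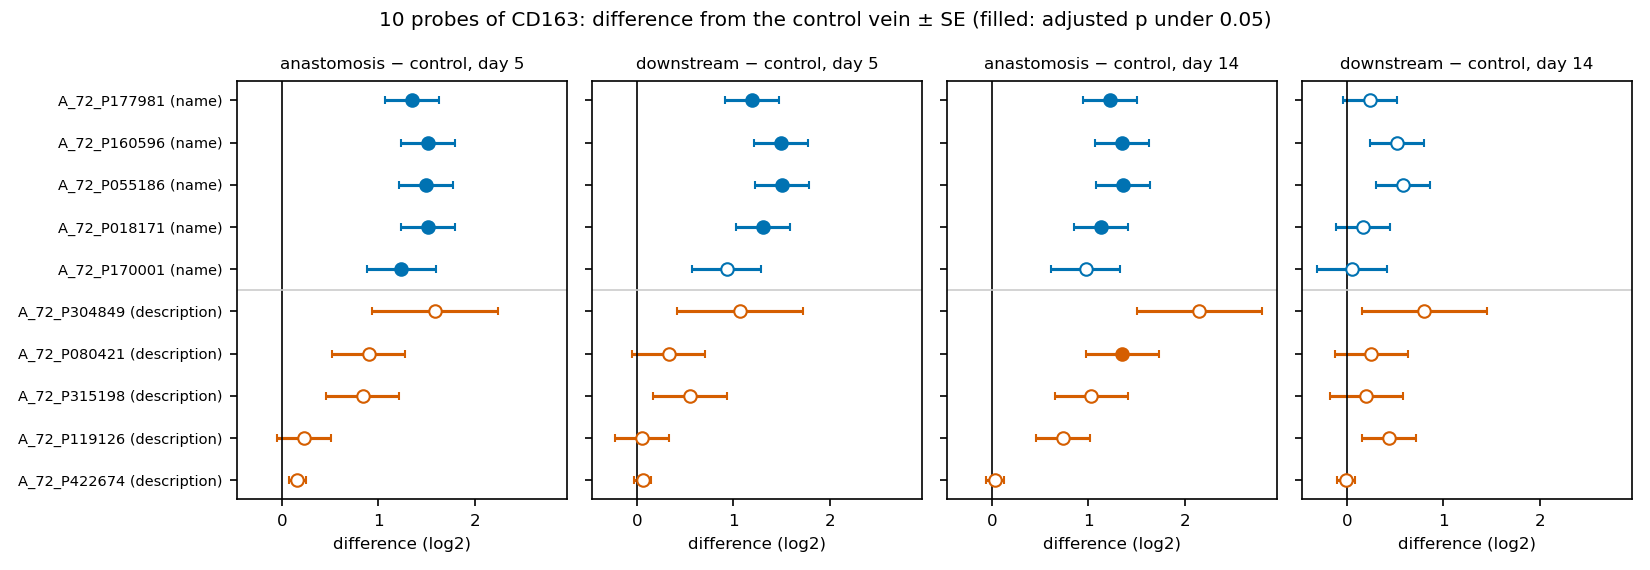
Difference from the control vein (log2, ± SE, horizontal axis) of the 10 CD163 probes, 5 assigned by name (blue) and 5 by description (orange), for both graft sites and days; filled points passed an adjusted p of 0.05. The named probes lie between 0.93 and 1.52 on day 5 and downstream between 0.05 and 0.58 on day 14.

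The 5 genes moved together across samples. Over the 24 samples the correlation between their brightest probes was 0.51 (MSR1 with CD68) to 0.854 (CD68 with VSIG4), and after the mean of each number and day was removed 0.677 (VSIG4 with SLC11A1) to 0.924 (MSR1 with CD68). These are descriptions of samples that share sites, arrays and slides. Among 5785 named genes, those most like each member over the 24 samples were found by the same measure. For MSR1 they were ADAM28 (0.927), ATP6V1F (0.911), a subunit of the vacuolar proton pump, and PLOD2 (0.905), a collagen lysyl hydroxylase. For CD68 they were GP91-PHOX (0.940), the catalytic subunit of the phagocyte oxidase also called CYBB, NAV1 (0.916) and the endosomal receptor TLR7 (0.904). For VSIG4 they were the collagens COL8A1 (0.855) and COL12A1 (0.855) and the protease HTRA1 (0.845), for CD163 TPM4 (0.876), the lysosomal glucuronidase GUSB (0.871) and CALR (0.870), and for SLC11A1 AHCY (0.909), MPP1 (0.897) and CCNY (0.894). The tenth most like gene still correlated at 0.887 with MSR1, 0.835 with CD163, 0.871 with CD68, 0.804 with VSIG4 and 0.879 with SLC11A1. Correlations of the size seen between the members were therefore not particular to them.

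Genes of the machinery that the 5 members belong to were counted in lists, which leave out the 5 members. Of the lysosomal enzymes and membrane proteins 26 were tested: 12 rose and 2 fell at the anastomosis on day 5, 11 rose and 0 fell there on day 14, 10 rose and 0 fell downstream on day 5, and 1 rose and 0 fell downstream on day 14. Over all probes 20%, 8.87%, 8.37% and 0.913% were called in these 4 comparisons, and the counts of this and the following lists are to be read against those shares. The list's median difference was 0.67, 0.73, 0.55 and 0.31 in that order, against 0.01 for all probes in each. The number passing ranged, with a replicate or sample left out, from 4 to 14 and 2 to 15 at the anastomosis on days 5 and 14 and from 0 to 11 and 0 to 2 downstream, with the lowest counts at the anastomosis without replicate 4. On day 14 ACP5, the tartrate-resistant acid phosphatase, rose at the anastomosis by 4.25 ± 0.67 and CTSD, the aspartic protease of lysosomes, by 1.75 ± 0.30. They also had the largest differences between anastomosis and downstream vein in the list, 3.23 ± 0.67 and 1.40 ± 0.30, neither of which passed (adjusted p = 0.123 for both).

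Of 20 phagosome, oxidase and proton pump genes, 7 rose and 3 fell at the anastomosis on day 5 and 7 rose and 1 fell on day 14, while downstream 2 rose and 3 fell on day 5 and 0 passed on day 14. With a replicate or sample left out the number passing was 1 to 10 and 0 to 10 at the anastomosis on days 5 and 14, lowest without replicate 4, and 0 to 8 downstream on day 5, where it was 0 without replicate 2, 3 or 4. CYBB, the oxidase subunit named above, rose by 2.07 ± 0.40 at the anastomosis on day 14. ATP6V0D2, a proton pump subunit, differed by 1.39 ± 0.30 between anastomosis and downstream vein (adjusted p = 0.124), CYBB by 1.20 ± 0.40 (adjusted p = 0.227). Of 22 lipid-loaded macrophage genes, 7 rose and 3 fell at the anastomosis on day 5, 7 rose and 2 fell on day 14, 5 rose and 2 fell downstream on day 5, and 0 passed downstream on day 14. The corresponding ranges were 3 to 11, 1 to 13 and 0 to 8, with the lowest counts in the same fits. SPP1, which encodes osteopontin, rose by 5.12 ± 1.06 at the anastomosis on day 14 and FABP5, a fatty acid carrier, by 2.17 ± 0.56. PLTP, a phospholipid transfer protein, differed by 1.43 ± 0.29 between the graft sites (adjusted p = 0.122) and SPP1 by 1.73 ± 1.06 (adjusted p = 0.475).

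Other scavenger and uptake receptors gave calls in both directions, where 20% and 8.87% of all probes were called at the anastomosis on days 5 and 14. Downstream 8.37% and 0.913% were called. Of 16 tested, 2 rose and 2 fell at the anastomosis on day 5, 3 rose and 1 fell on day 14, 1 rose and 2 fell downstream on day 5, and 0 passed downstream on day 14. SCARA5, a ferritin-binding class A receptor found on stromal cells, fell by 3.67 ± 0.50 at the anastomosis on day 14, and CD93 rose by 0.80 ± 0.22. Between the graft sites SCARA5 differed by -2.23 ± 0.50 (adjusted p = 0.132) and CD36 by -0.80 ± 1.24 (adjusted p = 0.81). Of 12 Fc and complement receptors, 2 rose and 0 fell at the anastomosis on each day and downstream on day 5, and 0 passed downstream on day 14. The count was 0 at the anastomosis on day 14 without replicate 4 and 4 without the control sample of replicate 2, and downstream on day 5 it was 0 without replicate 2, 3 or 4. FCGRT and FCGR3A both rose by 0.87 at the anastomosis on day 14 (± 0.16 and ± 0.24), and FCGR1A and FCER1G differed between the graft sites by 1.07 ± 0.39 and 0.86 ± 0.31 (adjusted p = 0.252 and 0.247).

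The ferritin genes of iron storage passed downstream on day 14, where 0 of the 5 members did and 0.913% of all probes were called. On day 5 that share was 8.37%, and at the anastomosis it was 20% and 8.87% on days 5 and 14. Of 17 haem and iron genes, 3 rose and 1 fell at the anastomosis on day 5, 2 rose on day 14, 3 rose and 1 fell downstream on day 5, and 2 rose downstream on day 14. The ferritin chains FTL and FTH1 rose by 1.68 ± 0.26 and 1.03 ± 0.14 at the anastomosis on day 14; downstream they rose by 1.16 ± 0.26 (adjusted p = 0.0493) and 0.95 ± 0.14 (adjusted p = 0.00928). Downstream FTL passed in 6 and FTH1 in 11 of 18 alternatives. Neither passed without replicate 3 (adjusted p = 0.176 for FTL and 0.0527 for FTH1), without replicate 4 (0.363 and 0.17), with the scanner's processed signals, in the authors' values or with only the samples compared; FTL also missed without replicate 2 and FTH1 without replicate 1. With probes averaged per symbol the downstream differences were 0.53 for FTL and 0.58 for FTH1. HMOX1, which degrades haem, and STEAP4, a metalloreductase, differed between the graft sites by 0.82 ± 0.68 and -1.21 ± 0.60 (adjusted p = 0.612 and 0.375). No test set the ferritin differences against those of the members.

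**Figure D5:**
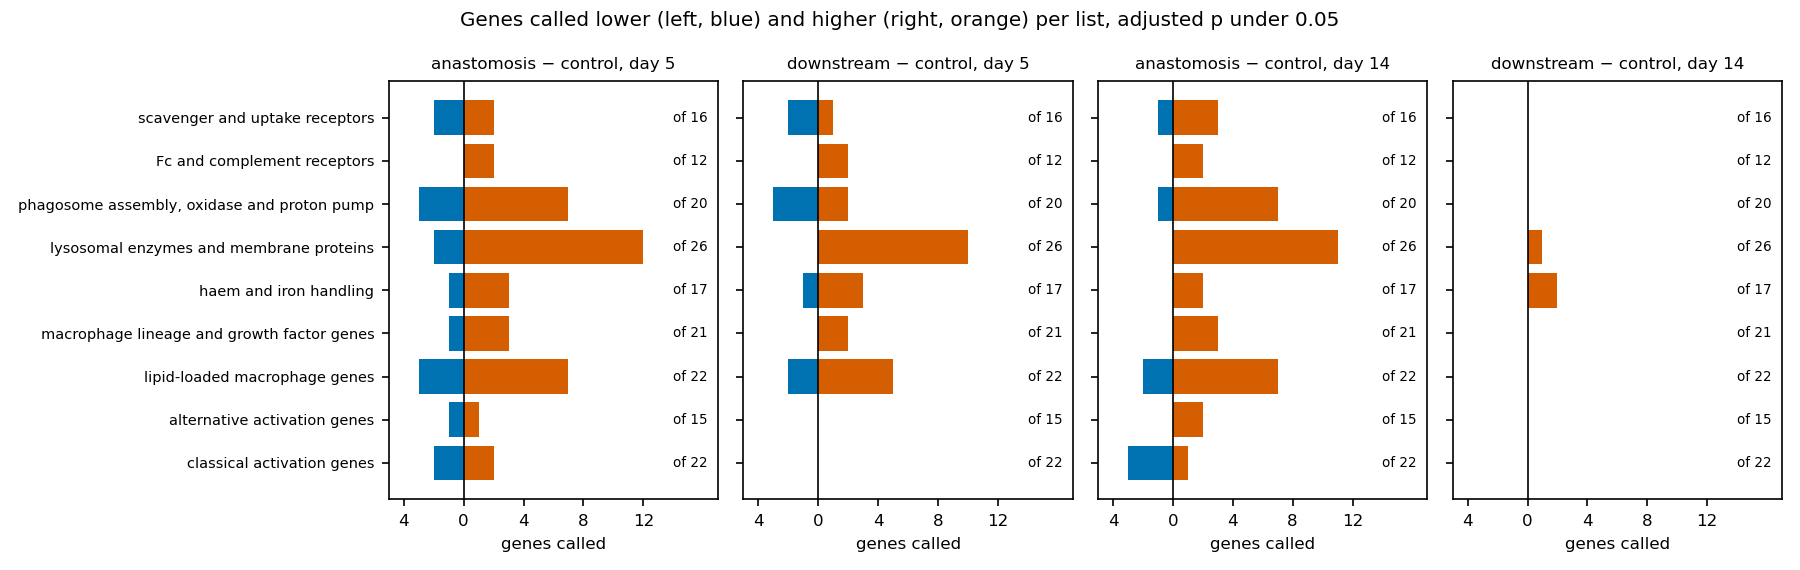
Number of genes called higher (right, orange) and lower (left, blue) at an adjusted p of 0.05 in 9 lists of macrophage function, with the number tested at the right of each row. Lysosomal genes give 12 and 11 higher at the anastomosis on days 5 and 14, 10 downstream on day 5 and 1 downstream on day 14.

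Macrophage identity and activation genes were counted in the same way. Of all probes, 20% and 8.87% were called at the anastomosis on days 5 and 14, and 8.37% and 0.913% downstream. No list was tested against these shares, and a count near them says nothing particular about a list. Of 21 macrophage lineage and growth factor genes, 3 rose and 1 fell at the anastomosis on day 5, 3 rose on day 14, 2 rose downstream on day 5 and 0 passed downstream on day 14. The defining macrophage markers checked above went different ways. AIF1 had a mean level of 12.05 in the control and 13.48 at the anastomosis on day 5, and 12.08 and 13.48 on day 14. For CD14 these means were 10.77 and 11.32 on day 5, and 11.08 and 11.1 on day 14. For C1QA they were 12.9 and 12.42 on day 5, lower at the anastomosis, and 12.89 and 13.79 on day 14. CD86, a costimulatory ligand, rose by 1.73 ± 0.34 at the anastomosis on day 14; CD86 and CCL8 differed between the graft sites by 0.94 ± 0.34 and 0.91 ± 0.62 (adjusted p = 0.251 and 0.529). Of 15 alternative activation genes 1 rose and 1 fell at the anastomosis on day 5 and 2 rose on day 14, PDCD1LG2 by 1.46 ± 0.28 and fibronectin (FN1) by 1.67 ± 0.45, with 0 downstream. FN1 passed in 8 of 18 alternatives and ranged from 0.96 to 2.42 with a replicate or sample left out. KLF4 and PDCD1LG2 differed between the graft sites by -1.43 ± 0.49 and 0.77 ± 0.28 (adjusted p = 0.233 and 0.254). Of 22 classical activation genes 2 rose and 2 fell at the anastomosis on day 5 and 1 rose and 3 fell on day 14, with 0 downstream. The chemokine CXCL2 fell by 2.33 ± 0.66 and the transcription factor IRF1 by 2.25 ± 0.55 at the anastomosis on day 14, and their differences between the graft sites were -1.41 ± 0.66 and -1.28 ± 0.55 (adjusted p = 0.354 and 0.319).

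Markers of other cells moved in the same comparisons, in which 20% and 8.87% of all probes were called at the anastomosis on days 5 and 14. Downstream these shares were 8.37% and 0.913%. Of 13 contractile smooth muscle markers 11 fell at the anastomosis on day 5 and 5 downstream, and on day 14 the counts were 1, PDLIM3 at -2.65 ± 0.62, and 0. Their mean level was 13.98 to 14.74 in the controls of day 5 and 11.73 to 12.98 at the anastomosis. On day 14 it was 11.29 to 14.61 in the controls, with a median of 14.1, and 11.92 to 12.29 at the anastomosis. The list's median difference there was still -1.32. One control sample of day 14, replicate 2, was at 11.29 for these markers and at 14.06 for adipocyte markers. MSR1, CD163, CD68 and VSIG4 were also lowest in it among the controls of that day. High adipocyte levels were not limited to the control: on day 14 they ranged from 9.81 to 13.74 at the anastomosis and from 9.45 to 13.48 downstream. Without that control sample the anastomosis still gave 5 of 5 called on day 14 and the downstream vein 0. Of 14 endothelial markers 6 rose at the anastomosis and 5 downstream on day 5, and 5 and 1 on day 14, including KDR by 1.68 ± 0.33 and ICAM2 by 1.31 ± 0.26 at the anastomosis. Of 10 fibroblast markers 2 rose at the anastomosis on day 14, POSTN by 2.95 ± 0.48 and THY1 by 1.12 ± 0.32, while the list's median difference was -0.46. On day 5, 1 fibroblast marker rose and 2 fell there, with a median of -0.34. Of 14 adipocyte markers 1 fell at the anastomosis on day 14, CFD by 1.35 ± 0.39, a call made in 5 of 18 alternatives (-1.88 to -0.4). Their part in the differences of the macrophage genes was not tested.

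Markers of other leukocytes gave calls in both directions. The shares of all probes called were again 20% and 8.87% at the anastomosis on days 5 and 14, and 8.37% and 0.913% downstream. Of 7 neutrophil markers 2 fell at the anastomosis on day 14, CXCR2 by 2.15 ± 0.30 and PGLYRP1 by 0.89 ± 0.13. Both also fell downstream, on day 5 by 1.09 ± 0.30 and 0.68 ± 0.13 and on day 14 by 1.42 ± 0.30 and 0.61 ± 0.13. In the 4 comparisons with the control 0 neutrophil markers passed as higher. The median difference of the 7 was above 0 in each, at 0.32 and 0.39 at the anastomosis on days 5 and 14. Downstream it was 0.22 and 0.34, so the 2 named markers do not stand for the list. Of 16 T and NK cell markers 2 rose at the anastomosis on day 14, NKG7 by 0.86 ± 0.25 and CD4 by 0.42 ± 0.12, which passed in 6 and 8 of 18 alternatives; CD4 was well above background in 3 of 4 controls of that day. Of 9 dendritic and mast cell markers 2 rose there, HDC by 1.33 ± 0.26 and KIT by 1.18 ± 0.28, and HDC rose downstream as well, by 1.21 ± 0.26 (adjusted p = 0.0462). Of 4 B and plasma cell and 7 red cell and platelet markers 0 passed on day 14. Of 7 genes common to leukocytes 1 rose at the anastomosis on day 5 and 0 passed in the other 3 comparisons with the control; their mean level was 9.44 to 10.15 in the controls and 10.09 to 10.91 at the anastomosis on day 5, and 9.49 to 11.15 and 10.07 to 11.62 on day 14. The mean level of the macrophage lineage list was 9.94 to 10.55 in the controls and 10.27 to 10.75 at the anastomosis on day 5, and on day 14 it had a median of 10.28 in the controls and was 10.60 to 10.99 at the anastomosis; the groups overlapped on day 5 and not on day 14.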

How the data were processed

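Per the labels' protocols, RNA of the 24 samples was prepared with a Qiagen RNeasy Micro kit, and the dyes were introduced with Agilent's two-colour Quick Amp protocol. The deposited scanner files held linear intensity values of 16 Agilent pig arrays; per the file headers the scans were read by version 10.5.1.1 of Feature Extraction. The authors also deposited a table of log2 values, used as an alternative; its scale, centring and making are not given in the sources used here. Each sample was read in its own channel. The green channel of the downstream arrays has no sample in the labels and was not tested. It entered the loess curve and, through the mean of both channels, the normalisation between arrays, so that the downstream levels depend on it.

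Intensities were corrected by normexp (offset 50), normalised by loess within and Aquantile between arrays, and tested per probe in limma 3.58.1 with R 4.3.3 after keeping probes well above background in at least 4 of 24 samples (36141 of 43603). Site comparisons used all 24 samples, a term per group and a fixed block per replicate number within a day (8 blocks of 3, 12 residual degrees of freedom), because control and anastomosis of a number share an array; samples of a number and day correlated in their deviations from the group means at 0.215 to 0.812 on the same array and 0.174 to 0.751 on different arrays. Samples of equal site and number on the other day also correlated, at 0.0741 to 0.627, above 0.1 in 11 of 12 pairs. For day comparisons the 8 samples from a site were nevertheless fitted without a block. The number of arrays limits the precision. The pipeline was tested on simulated data with known changes. Symbols (20.8% of probes) came from the files' annotation through gene ID and RefSeq tables. A gene was represented by its brightest probe. Named from each list were the 2 genes past the threshold with the largest difference between anastomosis and control on day 14 and, for the 9 macrophage function lists, the 2 with the largest difference between the graft sites on day 14. Of the genes so chosen, 2 are not reported here. The members, the lists and the fit of the site comparisons with its block were chosen with earlier results of these data known. Alternatives covered background correction, normalisation, filter, probe averaging, the authors' table, the block, the samples fitted and each replicate left out.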

Additional observations from a re-analysis of the deposited data

Results flagged for a closer look

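In 73 groups of 4 samples in which a probe was above background throughout, 5 held a sample far from the other 3 (6.85%, where chance gives about 1 in 20). Replicate 2 of the downstream vein on day 14 was low for CD163, at 12.28 by A_72_P177981 (the others 13.86 to 14.04) and at 11.74 by A_72_P160596 (13.46 to 13.78). Replicate 2 of the control on day 14 was low for VSIG4, at 10.53 (12.20 to 12.48), and for CD163 by A_72_P018171, at 9.12 (10.01 to 10.14). Replicate 4 of the anastomosis on day 14 was high for VSIG4, at 13.81 (13.30 to 13.36). Without the downstream sample of replicate 2 the day-14 difference between the graft sites had a median of 1.05 over the 5 genes, beside 1.22 with it; CD163 was 0.63 in place of 0.98 and VSIG4 0.55 in place of 0.85.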

How the results depend on the processing

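Of 885 alternative values of the 50 gene differences, 868 kept their direction. Over fits leaving out a replicate or sample, the number of the 5 genes called ranged from 2 to 4 at the anastomosis on day 5, 0 to 5 on day 14, 0 to 4 downstream on day 5, 0 to 1 on day 14, and 0 to 2 between the graft sites on day 14. Median centring gave 5 at the anastomosis on day 5 and 4 downstream on day 14, and the authors' values gave 5 at the anastomosis on day 5. The replicate block follows the shared arrays and slides, but the fit had been used earlier on these data and was chosen with results known. With no replicate block 1 was called at the anastomosis on day 14 in place of 5, and 1 downstream on day 5 in place of 4. In the day comparisons 0 of 5 passed with a replicate block, as without. Replicates 1 and 2 alone gave 0 at the anastomosis on either day and 0 downstream on day 5; replicates 3 and 4 alone gave 3 at the anastomosis and 1 downstream on day 14. With only the samples compared, 5 were called at the anastomosis on day 5 and 0 on day 14.

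Over all probes, the count at the anastomosis on day 14 was 3205, and 1 in replicates 1 and 2 alone, 62 with only the samples compared, 149 to 3246 without a replicate, 597 with no block and 14827 with median centring. On day 5 it was 7232, and 2 in replicates 1 and 2, 2595 with no block, 2793 without replicate 4, 4294 without replicate 3, 4406 in replicates 3 and 4 and 12367 with median centring. Downstream on day 5 it was 3025, and 0 in replicates 1 and 2, 3 to 4936 without a replicate, 360 with no block, 7293 in the authors' table and 9554 with median centring. Downstream on day 14 it was 330, and 0 in replicates 1 and 2 and with only the samples compared, 4 to 354 without a replicate, 146 without the downstream and 826 without the control sample of replicate 2, 14 with no block, 497 with no background correction, 623 in the authors' table, 1898 in replicates 3 and 4 and 10893 with median centring. Median centring put the median of all probes at 0.119 to 0.205 in these comparisons, in place of 0.01, and raised the share called as higher at the anastomosis on day 14 from 53.8% to 75.9%.

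Between the graft sites on day 14, CD36 was 0.3 in the authors' table and 0.81 in replicates 3 and 4, where A_72_P119126 was -0.06. In replicates 1 and 2, SLC11A1 was -0.75 downstream against the control on day 14, and MSR1 was 0.06 between the days at the anastomosis. In replicates 3 and 4 the day-14 minus day-5 difference was 0.16 for MSR1 and -0.29 for SLC11A1 in the control, and 0.06 for CD68 and 0.05 for VSIG4 downstream. With a replicate or sample left out, ranges that crossed 0 between the graft sites were -0.04 to 0.59 (MSR1), -0.01 to 0.31 (CD163) and -0.38 to 0.13 (CD68) on day 5, and -2.22 to 0.6 (CD36) and -0.03 to 0.65 (A_72_P119126) on day 14. Between the days they were -0.61 to 0.3 (MSR1), -0.36 to 0.1 (CD163), -0.37 to 0.04 (CD68) and -0.52 to 0.02 (VSIG4) in the control, -0.36 to 0.35 (MSR1) and -0.89 to 0.02 (SLC11A1) at the anastomosis, and -0.77 to 0.01 (VSIG4) downstream. The cause was not tested. Of 50 differences of the other genes named from the lists, 49 kept their direction throughout.

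The fits without a single control or downstream sample of day 14 were added after the data were seen. The slide as a random block was not run, because only 1 slide held more than 1 sample of a site and limma estimated no correlation. The 4 samples in a group and, for the dimmer CD163 probes known by description (all but A_72_P304849), signals near background limit the precision.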
